A study of Mus musculus with 34 samples.

Results

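The expression of 10 imprinted genes that act on growth was examined in brown preadipocytes: Dlk1, Meg3, Igf2, H19, Peg3, Mest, Cdkn1c, Grb10, Plagl1 and Igf2r. They were chosen by name, with earlier results of these data known, from 23109 genes measured by RNA-Seq, and 10 of 10 were found. Each gene was represented by the RefSeq transcript with the highest mean RPKM, a read number scaled for transcript length and for sequencing depth. An imprinted gene is expressed mainly from the allele of 1 parent. In the mouse, Dlk1, Igf2, Peg3, Mest and Plagl1 are known for expression from the paternal allele, and Meg3, H19, Cdkn1c, Grb10 and Igf2r for expression from the maternal allele. Several paternally expressed members promote growth before birth, and several maternally expressed members restrain it. In fat tissue the best known member is Dlk1, whose protein is abundant in preadipocytes and inhibits their differentiation. RPKM counts reads of both alleles together, so allelic expression was not measured here.

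The cells were preadipocytes from the interscapular brown fat of newborn mice, immortalized with SV40T, a viral oncoprotein. The labels give the strain as C57BL/6J and the genotype as GR-flox/flox, a floxed allele of the glucocorticoid receptor gene that all 14 RNA-Seq libraries shared. They also describe infection with Vec or Cre to make WT or GR KO cells, whereas the study's methods give wild-type newborn mice, so the state of that allele is uncertain. In the first experiment, retrovirally infected cells expressed histone H3.3, either WT or with the K36M mutation, in which lysine 36 is replaced by methionine and which lowers methylation of that residue, and were collected at D0 (confluent, before induction), D2 and D7 of adipogenesis. Adipogenesis was induced with insulin, T3, IBMX, dexamethasone and indomethacin. From D2 on, the medium held only insulin and T3 of these. In the second, WT or K36M cells also carried retroviral PPARγ, the master regulator of adipogenesis, and sub-confluent cells received DMSO (0 h in the labels) or its ligand Rosiglitazone (Rosi) for 24 h. In the third, cells carried a lentiviral control shRNA (Con in the labels, Ctrl here) or an shRNA against Nsd2 (shNSD2, Nsd2 KD here), an H3K36 methyltransferase, and were collected at D0 and D2. Each of the 14 conditions had 1 library, so no difference below has a replicate check and no p-value was computed. All populations derive from immortalized brown preadipocytes, and the sources used here do not say whether these were 1 line. The labels do not say how many mice they came from.

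The libraries held 12213559 to 24365867 mapped reads, recovered from the RPKM values. No library was identical to another. Nsd2 was at 19.9 RPKM in Ctrl and 5.85 in Nsd2 KD cells at D0, and at 29.0 and 7.01 at D2. Pparg was at 42.6 to 71.8 RPKM in the 4 libraries with ectopic PPARγ and 11.5 to 26.4 in the other D0 libraries. All 8 preadipocyte or mesenchymal markers were above 0 in every library, with a summed level of 353 to 2758 RPKM. In Nsd2 KD cells at D2, 5 of the 8 reached 1 RPKM. The highest of them was Fn1 or Col1a1 in every library, and these weigh heavily in the sums. Fn1 made up 363 of 391 RPKM in Nsd2 KD cells at D2, and Col1a1 1678 of 2758 in Ctrl cells at D0. The brown fat marker Ucp1 was at or near 0 in every library, at no more than 0.194 RPKM, also at D7. Fabp4, a general adipocyte marker, spanned 7.16 to 3249 RPKM. Endothelial markers summed to at most 2.47 RPKM and macrophage markers to at most 3.34. The 6 muscle markers summed to 0.277 to 71.5 RPKM, with Acta1 the highest of them in every library and at its peak in the PPARγ K36M cells. In bulk RNA, fewer cells expressing a gene and less RNA per cell cannot be told apart.

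The members lie on several chromosomes, and only some of them are neighbours. Dlk1 (NM_010052) and Meg3 (NR_027652) are neighbours on the plus strand of chromosome 12, at positions 110691033 to 110701546 and 110779211 to 110809936 of mm9, with 77.7 kb between them. Igf2 (NM_001122737) and H19 are neighbours on the minus strand of chromosome 7, at 149836673 to 149852721 and 149761434 to 149764048, with 72.6 kb between them. Cdkn1c (NM_009876) lies on the same chromosome at 150644255 to 150646955, and Peg3 (NM_008817) at 6656603 to 6683132. Mest (NM_001252293) lies on chromosome 6, Grb10 (NM_010345) on chromosome 11, Plagl1 (NM_009538) on chromosome 10 and Igf2r (NM_010515) on chromosome 17. The H19 row was identified by its length, as its accession NR_001592 was not in the table of current names. Of 174 unnamed noncoding rows it was the only 1 whose length, 2615 bases, equals the annotated span of H19.

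The sequences just upstream of Dlk1 and Meg3 are shown because these neighbours differed in opposite directions between Nsd2 KD and Ctrl cells at D0. Both are the 250 bases before the RefSeq start on the plus strand of GRCm38.p6, chr12:109452573-109452822 for Dlk1 and chr12:109540746-109540995 for the first Meg3 start. Capitals mark matches on either strand to TATAAA (the TATA box) or CCAAT. The window of Meg3 held a TATAAA on each strand, overlapping in 1 run, and a CCAAT, while that of Dlk1 held neither.
Dlk1: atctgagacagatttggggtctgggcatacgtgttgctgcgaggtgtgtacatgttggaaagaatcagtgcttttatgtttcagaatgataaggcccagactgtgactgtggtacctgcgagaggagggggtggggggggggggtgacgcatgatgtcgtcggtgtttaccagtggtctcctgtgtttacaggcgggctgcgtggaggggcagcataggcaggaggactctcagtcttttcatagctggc
Meg3: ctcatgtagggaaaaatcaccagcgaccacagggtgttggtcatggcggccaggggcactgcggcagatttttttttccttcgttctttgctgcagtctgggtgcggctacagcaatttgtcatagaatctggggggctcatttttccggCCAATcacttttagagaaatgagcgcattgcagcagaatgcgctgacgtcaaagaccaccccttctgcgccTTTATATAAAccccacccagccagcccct

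Among 32851 RefSeq promoters of the same length, 12.4% held TATAAA and 33.8% held CCAAT. The GC box GGGCGG, present in 32.7% of promoters, was in neither window. These are matches of letters, not binding sites.

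H19 and Meg3 are host transcripts of miRNAs, whose mature sequences are shown because their hairpins have RPKM values of their own. Mir675 lies in the H19 exon, at 149762969 to 149763052 of chromosome 7 in mm9. Mir1906-1 lies in an annotated Meg3 exon, at 110782751 to 110782830 of chromosome 12. The sequences are from RefSeq (GRCm38.p6), with the seed, bases 2 to 8, in capitals, and the 3 seeds differ.
mmu-miR-675-5p: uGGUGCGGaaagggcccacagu
mmu-miR-675-3p: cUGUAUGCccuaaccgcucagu
mmu-miR-1906: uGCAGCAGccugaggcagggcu

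The levels of the 10 genes differed widely between conditions for all but Igf2r. The highest level over the lowest was 48.8-fold for Dlk1, 13.7-fold for Meg3, 21.1-fold for Peg3, 38.5-fold for Mest, 64.3-fold for Cdkn1c, 28.0-fold for Grb10 and 11.8-fold for Plagl1. It was only 2.52-fold for Igf2r. For Igf2 and H19 the lowest libraries held 1 and 3 reads, so their ratios of 248 and 556 have wide counting error. By median level per length, the order was Igf2r (31.6 RPKM), Grb10 (28.9), Meg3 (27.2), Dlk1 (19.5), Plagl1 (6.49), Mest (3.81), Cdkn1c (3.62), Peg3 (1.59), Igf2 (1.07) and H19 (0.872). The ranges over libraries of neighbours in this order overlapped throughout.

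**Figure D1:**
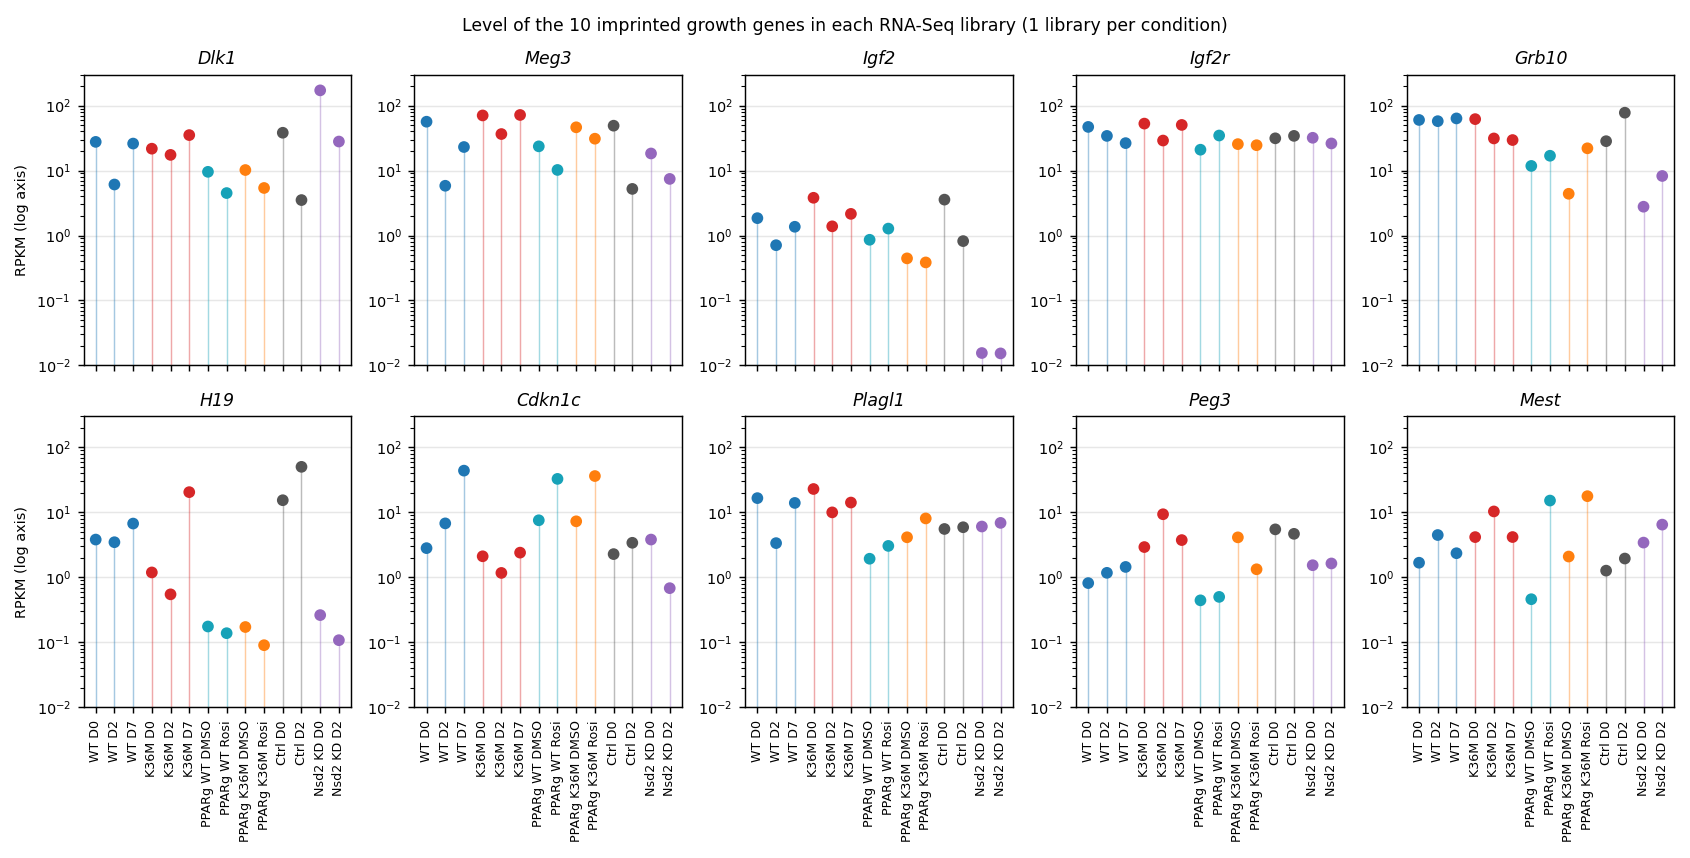
RPKM on a log axis of each gene in each of the 14 libraries, coloured by cell population; each point is 1 library and there are no error bars because there are no replicates. Igf2r stayed between 20.9 and 52.7 RPKM, whereas Dlk1 reached 171 RPKM and Igf2 fell to 0.0155 RPKM in Nsd2 KD cells at D0.

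Dlk1 encodes a transmembrane protein with EGF-like repeats that restrains adipogenesis. Over D0, D2 and D7 it was at 27.6, 6.09 and 26.0 RPKM in WT cells. The K36M cells had 21.7, 17.4 and 35.1 RPKM on the same days. Dlk1 was thus low at D2 in WT cells, and the K36M levels spanned a narrower range. PPARγ WT cells had 9.55 RPKM without Rosi and 4.50 with it, and PPARγ K36M cells 10.2 and 5.39. Ctrl cells had 38.1 RPKM at D0 and 3.51 at D2, and Nsd2 KD cells had 171 and 27.9. The Nsd2 KD cells at D0 had the highest Dlk1 level of the 14 libraries, and their level at D2 was close to that of WT cells at D0.

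Meg3 is a long noncoding RNA of the same cluster. It was at 56.4, 5.83 and 23.0 RPKM at D0, D2 and D7 in WT cells, compared with 70.4, 36.4 and 71.6 in K36M cells. Like Dlk1, it was lowest at D2 in both. Without and with Rosi, Meg3 was at 23.6 and 10.2 RPKM in PPARγ WT cells and at 46.3 and 30.9 in PPARγ K36M cells. Ctrl cells had 49.0 RPKM at D0 and 5.21 at D2, and Nsd2 KD cells 18.3 and 7.43. Meg3 was therefore lower in Nsd2 KD than in Ctrl cells at D0, where Dlk1 was higher. The ratio of Dlk1 to Meg3 RPKM was 0.174 to 1.13 in the 12 libraries without Nsd2 KD, against 9.36 at D0 and 3.76 at D2 in Nsd2 KD cells.

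Igf2 encodes a fetal growth factor that signals through the IGF1 and insulin receptors. It was low throughout, at 1.85, 0.709 and 1.36 RPKM in WT cells at D0, D2 and D7, compared with 3.81, 1.38 and 2.15 in K36M cells. PPARγ WT cells had 0.860 RPKM without Rosi and 1.28 with it, and PPARγ K36M cells 0.445 and 0.385. In Ctrl cells it was at 3.57 RPKM at D0 (260 reads) and 0.820 at D2 (61 reads). In Nsd2 KD cells a single read was found at each day. Igf2 was thus at the limit of detection only in the Nsd2 KD cells, where 3 reads would have given 0.0466 RPKM at D0.

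Igf2r encodes the receptor that carries IGF2 to lysosomes for degradation. It was at 46.9, 34.1 and 26.4 RPKM in WT cells at D0, D2 and D7, compared with 52.7, 28.9 and 50.3 in K36M cells. Without and with Rosi, Igf2r was at 20.9 and 34.6 RPKM in PPARγ WT cells and at 25.5 and 24.5 in PPARγ K36M cells. Ctrl cells had 31.3 and 34.1 RPKM at D0 and D2, and Nsd2 KD cells 31.9 and 26.1. No comparison of Igf2r passed 2-fold, in 0 of 17.

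Grb10 encodes an adaptor that binds the insulin and IGF1 receptors and inhibits their signalling. It was steady in WT cells, at 60.0, 57.5 and 63.4 RPKM at D0, D2 and D7, and was at 61.8, 31.2 and 29.4 in K36M cells. PPARγ WT cells had 11.8 RPKM without Rosi and 16.9 with it, and PPARγ K36M cells 4.39 and 22.0. Ctrl cells had 28.3 RPKM at D0 and 77.6 at D2, and Nsd2 KD cells 2.77 and 8.24. Grb10 was higher at D2 than at D0 in both of these populations, from a lower level in Nsd2 KD cells.

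H19 is a long noncoding RNA expressed from the allele opposite to that of Igf2. It was at 3.83, 3.48 and 6.75 RPKM in WT cells at D0, D2 and D7, compared with 1.19, 0.549 and 20.5 in K36M cells. Ctrl cells had 15.4 RPKM at D0 and 50.4 at D2, the highest level. The 4 libraries with PPARγ were at 0.0906 to 0.176 RPKM, from 3 to 11 reads, and the Nsd2 KD libraries at 0.263 and 0.108, from 12 and 5 reads. H19 thus formed a low set of PPARγ and Nsd2 KD libraries, all below the lowest of the other 8. The PPARγ cells were sub-confluent and carried another vector, so density and vector cannot be told apart from each other.

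The hairpin values are a description over 14 libraries that share depth with the host values. Both hairpins lie within annotated exons of their hosts, so their values are not independent of the host values. Reads over the Mir675 hairpin numbered 56 in Ctrl cells at D2, 24 in Ctrl cells at D0 and 12 in K36M cells at D7, the 3 libraries with the highest H19. They numbered 0 to 3 in the other 11 libraries. Mir1906-1 had reads in all 14 libraries, from 4 in WT cells at D2 to 91 in PPARγ K36M cells with DMSO. Its level per Meg3 RPKM was lower in the WT and K36M time course than in the other populations. These libraries were made from poly(A) RNA, so such reads count host RNA and do not measure mature miRNA. Mir770, also in a Meg3 exon, had 23 reads in all, Mir483 in an Igf2 intron was above 0 in 1 library, and Mir335 in a Mest intron was listed at 0 in every library.

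**Figure D2:**
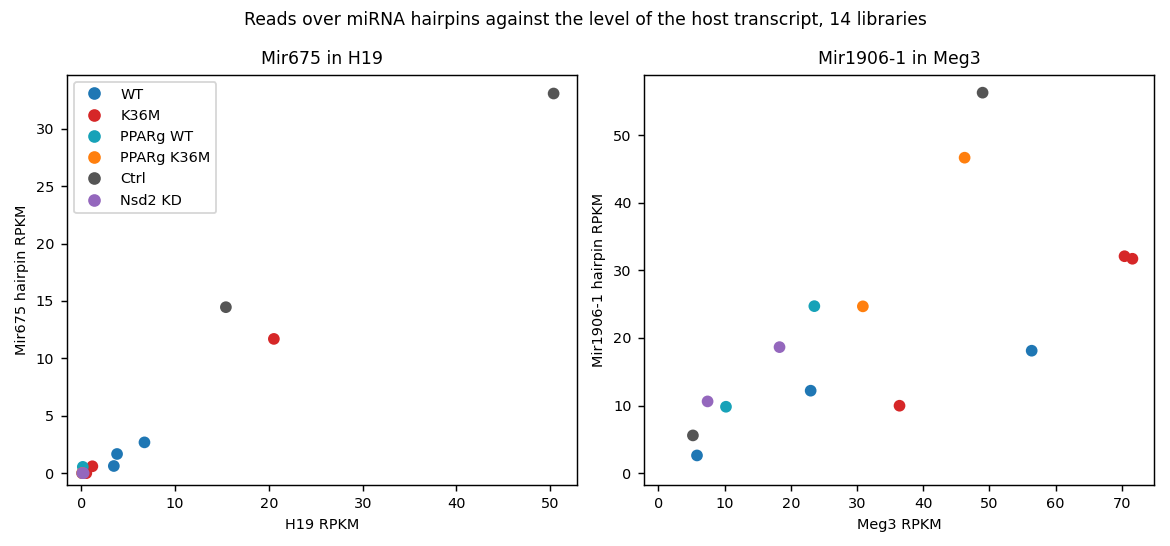
RPKM over the Mir675 hairpin against H19 RPKM (left) and over the Mir1906-1 hairpin against Meg3 RPKM (right), 1 point per library, coloured by population, linear axes. The 3 libraries highest in H19 had 12 to 56 reads over Mir675, and the other 11 lie near the origin with 0 to 3.

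Cdkn1c encodes p57, an inhibitor of cyclin-dependent kinases. It was at 2.82, 6.79 and 44.0 RPKM at D0, D2 and D7 in WT cells, against 2.12, 1.17 and 2.41 in K36M cells. Its level thus climbed from day to day in WT cells, and no K36M library of the time course reached the WT level at D0. Without and with Rosi, Cdkn1c was at 7.58 and 32.9 RPKM in PPARγ WT cells and at 7.31 and 36.3 in PPARγ K36M cells. Ctrl cells had 2.29 RPKM at D0 and 3.41 at D2, and Nsd2 KD cells 3.83 and 0.684. The K36M cells with ectopic PPARγ therefore reached the Rosi level of their WT counterparts.

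Plagl1 and Peg3 encode zinc finger transcription factors. Plagl1 was at 16.6, 3.37 and 14.01 RPKM at D0, D2 and D7 in WT cells, compared with 23.0, 10.0 and 14.2 in K36M cells, with the low point at D2 in both. PPARγ WT cells had 1.94 RPKM of it without Rosi and 3.06 with it, and PPARγ K36M cells 4.15 and 8.09. It differed little among Ctrl and Nsd2 KD cells, at 5.57 and 5.92 RPKM at D0 and D2 in Ctrl and 6.07 and 6.91 in Nsd2 KD cells. Peg3 was low in WT cells, at 0.819, 1.18 and 1.45 RPKM, and higher in K36M cells on each day, at 2.93, 9.39 and 3.76. Without and with Rosi, Peg3 was at 0.444 and 0.502 RPKM in PPARγ WT cells and at 4.14 and 1.34 in PPARγ K36M cells. Ctrl cells had 5.49 and 4.69 RPKM at D0 and D2, and Nsd2 KD cells 1.54 and 1.64. At D0 the Ctrl cells stood further above WT cells in Peg3 than K36M cells did.

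Mest encodes a protein of the alpha/beta hydrolase fold whose expression in fat is known to accompany fat expansion. It was at 1.68, 4.50 and 2.36 RPKM at D0, D2 and D7 in WT cells, compared with 4.18, 10.4 and 4.18 in K36M cells, highest at D2 in both. In PPARγ WT cells it was at 0.462 RPKM without Rosi (24 reads) and 15.2 with it (602 reads), and in PPARγ K36M cells at 2.10 and 17.8. Ctrl cells had 1.27 and 1.95 RPKM at D0 and D2, and Nsd2 KD cells 3.44 and 6.50. The highest Mest levels were those of the 2 libraries with Rosi.

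To compare conditions, a gene was called higher or lower when its RPKM differed over 2-fold and reached 1 in either library compared. Log2 ratios are given with 95% Clopper-Pearson intervals of the reads, which take in the error of counting alone and so compare 1 library with another rather than the conditions. Of 170 pairs of gene and comparison, 159 reached the RPKM minimum. The same rule was applied to all genes, and the percentage it called is given for each comparison. Because the members were chosen with earlier results of these data known, these shares are a description and not a test of excess. Comparisons that share a library, such as those with WT cells at D2, are not independent of each other.

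The first question was how the genes changed during adipogenesis. From D0 to D2 in WT cells, 6 of 10 were called, against 26.7% of all genes. Dlk1 (log2 ratio -2.18, interval -2.32 to -2.04), Meg3 (-3.27, -3.48 to -3.07), Igf2 (-1.38, -1.88 to -0.91) and Plagl1 (-2.30, -2.47 to -2.13) were lower. Mest (1.42, 1.05 to 1.80) and Cdkn1c (1.27, 0.94 to 1.60) were higher. In Ctrl cells, 5 of 10 were called against 27.4% of all genes, with Dlk1 (-3.44), Meg3 (-3.23) and Igf2 (-2.12) again lower. H19 (1.71) and Grb10 (1.46) were higher there, while in WT cells they were at -0.14 and -0.06. Plagl1 was at 0.09 in Ctrl cells (-0.08 to 0.25), unlike in WT cells. Dlk1, Meg3 and Igf2 were therefore lower at D2 in both control populations, and no other member was called in both. The Igf2 levels at D2 were under 1 RPKM, so both calls of Igf2 were lost when RPKM of at least 1 was required in both libraries, and that in WT cells also with a pseudocount of 1 added to each RPKM (-0.74). From D2 to D7 in WT cells, 4 of 10 were called against 20.8%, all higher: Dlk1 (2.09), Meg3 (1.98), Cdkn1c (2.70) and Plagl1 (2.05). The median of the 10 genes was 0.95, against 0.04 for all genes. The summed level of preadipocyte or mesenchymal markers was also low at D2, at 1842, 353 and 1234 RPKM at D0, D2 and D7 in WT cells. The part of cell composition in these changes was not tested. IBMX, dexamethasone and indomethacin were present up to D2 and withdrawn after it. Their effects and those of differentiation cannot be told apart over these days.

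In K36M cells, 5 of 10 were called from D0 to D2, against 21.5% of all genes. Peg3 (1.68) and Mest (1.31) were higher, and Igf2 (-1.46), H19 (-1.12, -1.96 to -0.34, from 18 reads at D2) and Plagl1 (-1.20) were lower. Dlk1, at -0.32 (-0.43 to -0.20), and Meg3, at -0.95 (-1.06 to -0.84), did not pass 2-fold. The longer Meg3 transcripts NR_003633 and NR_027651 were at -1.64 and -1.61 in this comparison, so the Meg3 call depended on the transcript. From D2 to D7, 5 of 10 were called against 22.7%: H19 (5.22, 4.55 to 5.99), Cdkn1c (1.04, 0.36 to 1.75) and Dlk1 (1.01, 0.90 to 1.13) were higher, and Peg3 (-1.32) and Mest (-1.31) lower. The Dlk1 and Cdkn1c values were at the 2-fold limit. In Nsd2 KD cells, 4 of the 8 genes that reached the minimum were called from D0 to D2, against 28.6%. Dlk1 (-2.62), Meg3 (-1.30) and Cdkn1c (-2.48) were lower and Grb10 (1.57) was higher.

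The next question was how K36M cells differed from WT cells. At D0, 4 of 10 were called against 11.4% of all genes. Igf2 (1.04, 0.75 to 1.34), Peg3 (1.84, 1.54 to 2.15) and Mest (1.31, 0.94 to 1.69) were higher, and H19 (-1.68, -2.11 to -1.27) was lower. With libraries rescaled by the median ratio Igf2 was at 0.95 and was not called. Preadipocyte or mesenchymal markers summed to 1842 RPKM in WT and 819 in K36M cells at D0, and their part in these differences was not tested. At D2, 7 of 10 were called against 15.6%. Dlk1 (1.51, 1.36 to 1.67), Meg3 (2.64, 2.43 to 2.87), Peg3 (2.99, 2.74 to 3.26), Mest (1.21, 0.95 to 1.47) and Plagl1 (1.57, 1.38 to 1.77) were higher, and H19 (-2.66, -3.45 to -1.96) and Cdkn1c (-2.53, -3.15 to -1.97) lower. The longer Meg3 transcripts were at 2.20 and 2.27 at D2, also past 2-fold but below the interval of the transcript used. The median log2 ratio of the 10 genes at D2 was 1.08, against 0.07 for all genes. Fabp4 was at 3249 RPKM in WT and 1473 in K36M cells at that day, and Pparg at 66.7 and 49.6. The adipogenic factor Cebpa was at 208 and 44.9 RPKM. Adipoq, another adipocyte marker, went the other way, at 6.16 RPKM in WT and 10.6 in K36M cells. Preadipocyte or mesenchymal markers summed to 353 RPKM in WT and 641 in K36M cells at D2. The part of differentiation in these differences was not tested. At D7, 5 of 10 were called against 20.2%. Meg3 (1.64), H19 (1.61) and Peg3 (1.37) were higher, and Cdkn1c (-4.19, -4.61 to -3.80) and Grb10 (-1.11) lower. Fabp4 was at 2644 RPKM in WT and 143 in K36M cells at D7. Peg3 was the only member called higher at all 3 days under the main rule, although its call at D0 was lost when RPKM of at least 1 was required in both libraries and that at D7 with a pseudocount of 1 (0.96). H19 was lower in K36M cells at D2 and higher at D7.

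Cells with Nsd2 KD were compared with Ctrl cells in the same way. At D0, 7 of 10 were called against 17.4% of all genes. Dlk1 (2.17, 2.11 to 2.22) and Mest (1.43, 0.99 to 1.89) were higher. Meg3 (-1.42, -1.55 to -1.29), H19 (-5.87, -6.83 to -5.06), Peg3 (-1.83, -2.08 to -1.59), Grb10 (-3.35, -3.54 to -3.16) and Igf2 (-7.84, -13.15 to -5.35, from 1 read) were lower. At D2, 6 of 9 were called against 14.4%. Dlk1 (2.99, 2.82 to 3.17) and Mest (1.73, 1.39 to 2.09) were higher, and H19 (-8.86, from 5 reads), Peg3 (-1.51), Cdkn1c (-2.32) and Grb10 (-3.23) lower. Meg3 was at 0.51 (0.24 to 0.79) at D2, opposite in sign to its value at D0. Igf2, at 1 against 61 reads, was under the RPKM minimum at D2. Fabp4 was at 1269 RPKM in Ctrl and 34.5 in Nsd2 KD cells at D2, and at 14.8 and 7.16 at D0. At D0 the preadipocyte or mesenchymal markers summed to 2758 RPKM in Ctrl and 812 in Nsd2 KD cells, with Pdgfra, a mesenchymal growth factor receptor, at 22.9 and 1.51. Cebpa, an adipogenic transcription factor, was at 14.7 and 0.239 RPKM, while Pparg went the other way, at 12.5 in Ctrl and 26.4 in Nsd2 KD cells. The part of cell state in these differences was not tested. Of the maternally expressed members, 3 (Meg3, H19, Grb10) were lower at D0 and 0 higher, against 10.8% and 6.61% of all genes. The paternally expressed members were divided, with 2 higher and 2 lower. At D2 the maternal counts were 0 higher and 3 lower (4.88% and 9.57%), and the paternal counts 2 and 1. For K36M against WT cells the maternal counts were 0 higher and 1 lower at D0 (5.02% and 6.36%). They were 1 and 2 at D2 (11.2% and 4.37%) and 2 and 2 at D7 (11.7% and 8.46%). Alleles were not measured.

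Directions were then set side by side for K36M against WT and Nsd2 KD against Ctrl at D0 and D2. Mest was higher in all 4 comparisons and H19 lower in all 4. Peg3 was higher in K36M cells and lower in Nsd2 KD cells at both days. Grb10, lower in Nsd2 KD cells at both days, was at 0.04 at D0 and -0.88 at D2 in K36M cells. Dlk1 was higher in both perturbed populations at D2 but at -0.35 (-0.43 to -0.26) in K36M cells at D0. Cdkn1c was lower in both perturbed populations at D2. No test of agreement was made, since each direction rests on 1 library pair.

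Differences of this size also separated the control populations, which carry different vectors and are not replicates. Between Ctrl and WT cells at D0, 4 of 10 were called against 22.2% of all genes. H19 (2.01) and Peg3 (2.75) were higher in Ctrl cells, and Grb10 (-1.09) and Plagl1 (-1.58) lower. At D2, 3 of 9 were called against 11.2%, with H19 (3.85) and Peg3 (1.99) higher and Mest (-1.20) lower. Dlk1 was at 0.47 at D0 and -0.80 at D2, and Meg3 at -0.20 and -0.16. For Dlk1, the Nsd2 KD ratios of 2.17 and 2.99 were larger than these differences between controls, as was the K36M ratio of 1.51 at D2. For Peg3, the K36M ratio of 1.84 at D0 was smaller than the 2.75 between controls, and that of 2.99 at D2 was larger than the 1.99. The Nsd2 KD ratios of Peg3, at -1.83 and -1.51, were smaller in size than both. For Mest at D2, the K36M ratio of 1.21 was about the size of the -1.20 between controls, and the Nsd2 KD ratio of 1.73 was larger. For H19, the K36M ratios of -1.68 and -2.66 were smaller in size than the 2.01 and 3.85 between controls, and the Nsd2 KD ratios were larger. The Nsd2 KD ratios of Grb10 exceeded its difference between controls at D0, and the K36M ratios at D2 of Meg3 (2.64) and Cdkn1c (-2.53) exceeded theirs (-0.16 and -0.99).

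**Figure D3:**
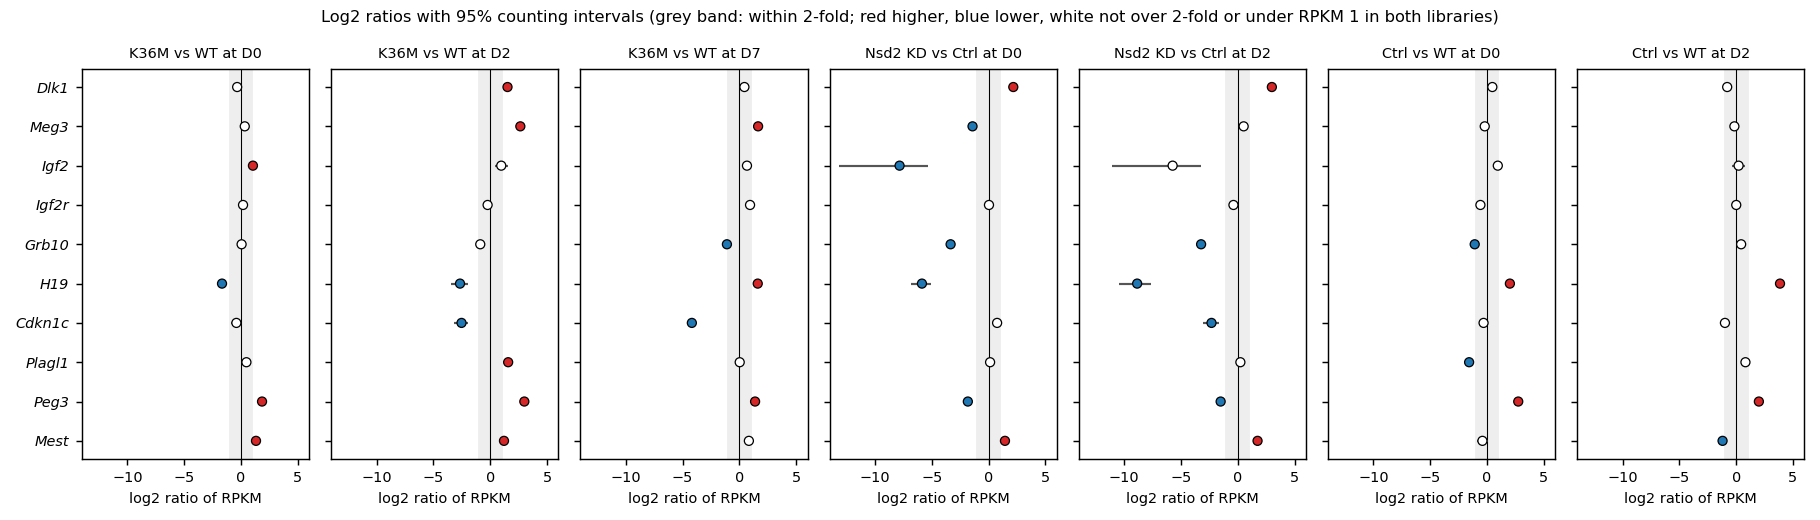
Log2 ratio of RPKM of each gene between the libraries named above each panel, with 95% counting intervals as lines; the grey band marks ratios within 2-fold, red and blue points are genes called higher and lower, and white points are not called. Dlk1 is at 2.17 and 2.99 in Nsd2 KD against Ctrl cells and within the band between Ctrl and WT cells, whereas Peg3 and H19 lie outside the band between Ctrl and WT cells too.

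The ligand experiment asked how the genes responded to Rosi when PPARγ was expressed ectopically. The labels give 0 h for the DMSO and 24 h for the Rosi libraries, whereas the study describes 24 h of either DMSO or Rosi. If the labels hold, ligand and time cannot be told apart. In WT cells, 4 of the 8 genes that reached the minimum were called against 15.0% of all genes. Mest (5.04, 4.46 to 5.70) and Cdkn1c (2.12, 1.93 to 2.30) were higher, and Dlk1 (-1.09, -1.27 to -0.90) and Meg3 (-1.21, -1.39 to -1.02) lower. In K36M cells, 4 of 8 were called against 16.8%. Mest (3.09, 2.80 to 3.38), Cdkn1c (2.31, 2.13 to 2.50) and Grb10 (2.32, 2.18 to 2.47) were higher, and Peg3 (-1.63, -1.93 to -1.34) lower. Dlk1 was at -0.92 (-1.11 to -0.73), just within 2-fold. Mest and Cdkn1c were thus higher with Rosi in both populations.

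Between K36M and WT cells with PPARγ and DMSO, 4 of 8 were called against 8.20% of all genes. Peg3 (3.22), Mest (2.18) and Plagl1 (1.10) were higher and Grb10 (-1.42) was lower. With Rosi, 4 of 9 were called against 19.1%. Meg3 (1.60), Peg3 (1.41) and Plagl1 (1.40) were higher, and Igf2 (-1.73, from 18 reads in K36M cells) was lower. Dlk1 was at 0.09 with DMSO and 0.26 with Rosi. Peg3 was thus called higher in K36M cells in 5 of 5 comparisons with WT cells, which involve 10 libraries. Its WT level was under 1 RPKM in 3 of the 5, and it was called in 2 of 5 when RPKM of at least 1 was required in both libraries, at D2 and D7. With a pseudocount of 1 it was called in 3 of 5, without D7 and Rosi (0.64). In the 5 comparisons Meg3 was above 0 each time, at 0.32 to 2.64, and was called in 3. With RPKM summed over its transcripts it was called in 4, also with PPARγ and DMSO (1.01).

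**Figure D4:**
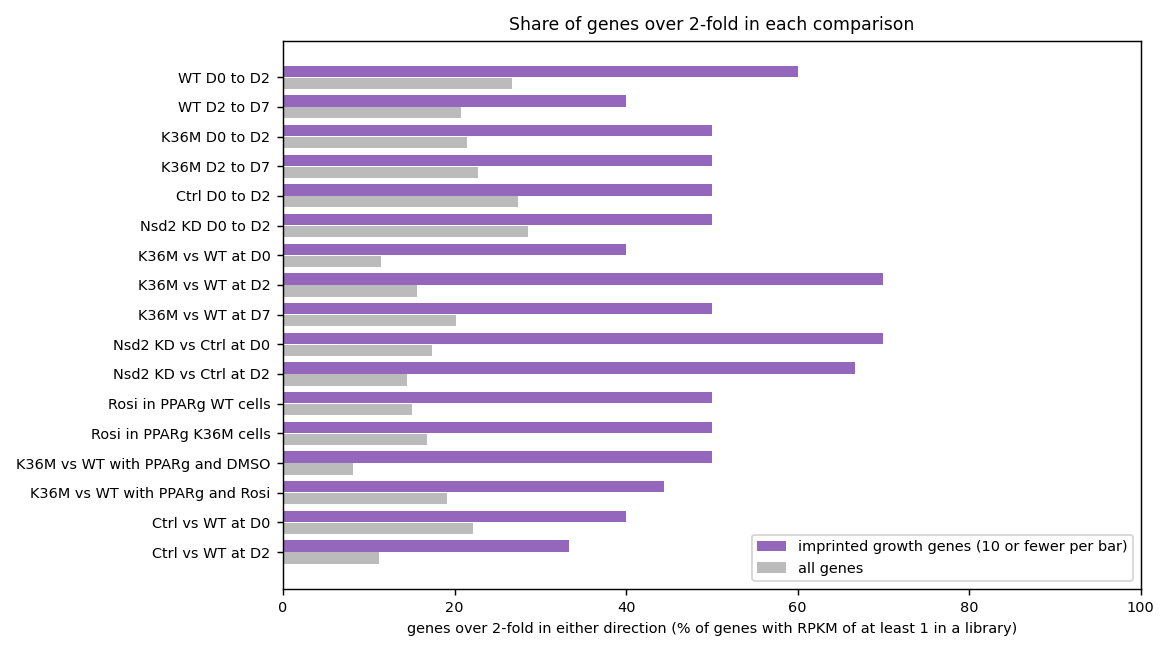
Percentage of genes over 2-fold in either direction in each of the 17 comparisons, for the imprinted growth genes (purple) and for all genes (grey), among those that reached RPKM 1 in a library compared. The purple bars span 33.3% to 70.0% and rest on 8 to 10 genes each, and the grey bars span 8.20% to 28.6%.

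Responses were also compared between populations, as differences of log2 ratios with 95% intervals from the reads. Between D0 and D2, the K36M response exceeded the WT response by 1.86 (1.68 to 2.04) for Dlk1, 2.32 (2.09 to 2.55) for Meg3, 1.15 (0.76 to 1.55) for Peg3 and 1.11 (0.90 to 1.31) for Plagl1. The Meg3 difference was smaller, below this interval, with the longer transcripts NR_003633 and NR_027651. Their responses were -1.64 and -1.615 in K36M cells and -3.276 and -3.184 in WT cells. The responses of Igf2 (difference -0.08, -0.68 to 0.53) and Mest (-0.10, -0.55 to 0.34) had intervals that spanned 0. From D2 to D7 the K36M response of H19 was larger by 4.27 (3.54 to 5.003). For Cdkn1c, the difference was -2.12 (-2.81 to -1.42) from D0 to D2 and -1.66 (-2.34 to -0.98) from D2 to D7. In Nsd2 KD against Ctrl cells from D0 to D2, it was 0.83 (0.64 to 1.01) for Dlk1, 1.93 (1.63 to 2.23) for Meg3, -3.06 (-3.81 to -2.31) for Cdkn1c and 0.12 (-0.10 to 0.33) for Grb10. For Rosi, K36M minus WT was -1.96 (-2.61 to -1.30) for Mest, 1.80 (1.63 to 1.98) for Grb10, 0.20 (-0.06 to 0.46) for Cdkn1c and 0.17 (-0.09 to 0.43) for Dlk1. The Mest level with Rosi was similar in WT and K36M cells, at 15.2 and 17.8 RPKM, and its DMSO level was lower in WT cells, at 0.462 against 2.10 RPKM.

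**Figure D5:**
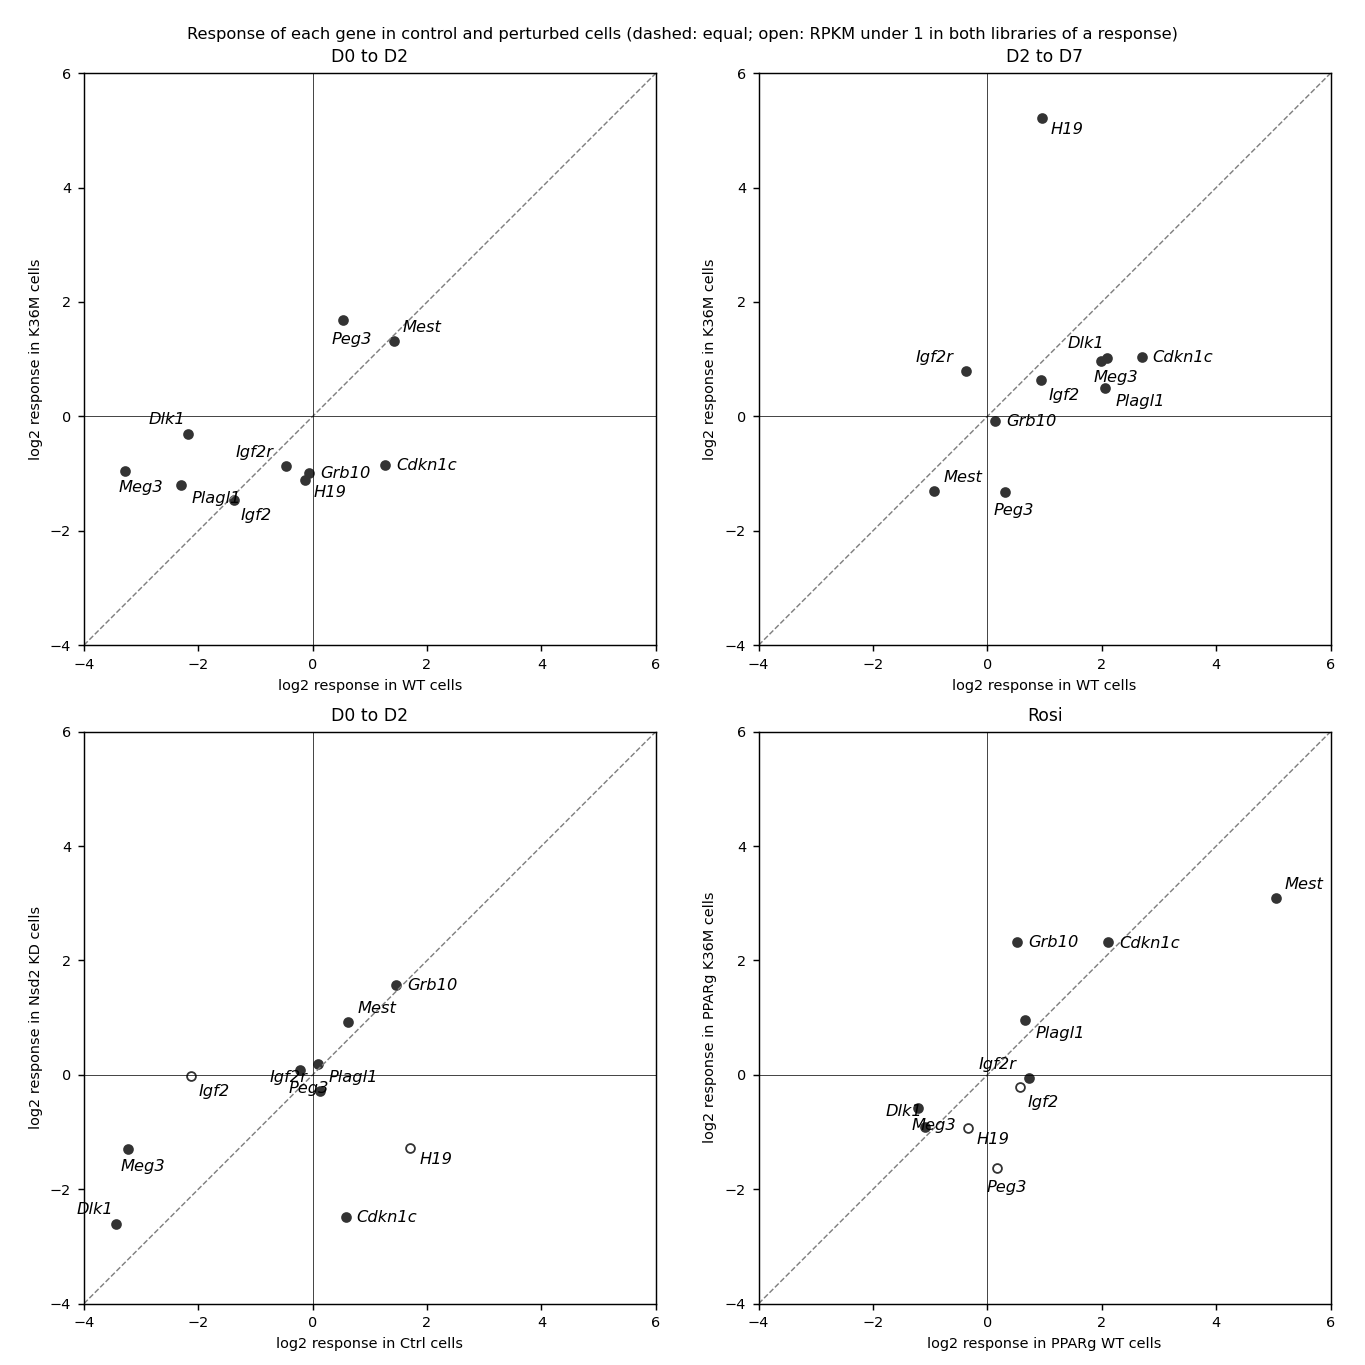
Log2 response of each gene in perturbed cells (vertical) against control cells (horizontal), for D0 to D2 and D2 to D7 in K36M and WT cells, D0 to D2 in Nsd2 KD and Ctrl cells, and Rosi in PPARγ K36M and PPARγ WT cells; points on the dashed line responded equally, and open points had RPKM under 1 in both libraries of a response. Cdkn1c lies at 1.27 in WT and -0.85 in K36M cells for D0 to D2, and from D2 to D7 H19 lies at 0.95 and 5.22.

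Other genes of the Dlk1 and Meg3 cluster were examined next. Rian, a noncoding RNA downstream of Meg3, was at 15.3, 1.45 and 6.21 RPKM at D0, D2 and D7 in WT cells, compared with 24.3, 10.6 and 19.5 in K36M cells. In Ctrl cells it was at 25.6 and 1.68 RPKM at D0 and D2, and in Nsd2 KD cells at 10.6 and 2.91. It thus had its low point at D2 where Meg3 did, and a lower level in Nsd2 KD cells at D0. Mirg, a further noncoding RNA there, was at 4.68, 0.685 and 1.85 RPKM in WT cells, compared with 6.12, 3.07 and 4.16 in K36M cells, and at 2.07 in Ctrl and 1.02 in Nsd2 KD cells at D0. The paternally expressed Rtl1 was at no more than 0.563 RPKM and Dio3 at no more than 0.909. The library preparation described in the methods does not mark the strand, so reads of overlapping antisense transcripts cannot be told apart.

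A list of 38 other imprinted genes, all found, was read in the same way. From D0 to D2 in WT cells, 0 of 23 that reached the minimum were higher and 8 lower, against 9.38% and 17.3% of all genes, with the largest changes in Rian (-3.40), Dcn, a matrix proteoglycan (-2.77), and Slc38a4, an amino acid transporter (-2.33). Its median was -0.30, against -0.01 for all genes. Between K36M and WT cells at D2, 7 of 24 were higher and 1 lower, against 11.2% and 4.37% of all genes, with Rian (2.87), Slc38a4 (2.64) and Peg10 (2.28) leading and a median of 0.45. The counts were 4 of 23 higher and 0 lower at D7 (11.7% and 8.46% of all genes), but 1 higher and 1 lower of 25 at D0 (5.02% and 6.36%). In Nsd2 KD against Ctrl cells at D0, 2 were higher and 5 lower of 21 (6.61% and 10.8%). Slc38a4 was at 0.730 against 32.2 RPKM there (-5.46), and Peg10, a gene derived from a retrotransposon, was at 108 against 31.5 (1.78). At D2, 0 were higher and 3 lower of 21 (4.88% and 9.57%). With Rosi, 2 of 20 were higher and 5 lower in PPARγ WT cells (9.96% and 5.05%), and 0 of 22 were higher and 7 lower in PPARγ K36M cells (7.90% and 8.85%). Slc38a4 also differed between Ctrl and WT cells at D0, by 2.37.

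Genes of the IGF pathway surround Igf2, Igf2r and Grb10. Of 15 listed, all were found and 11 to 15 reached the minimum in each comparison. From D0 to D2 in WT cells 5 were higher and 3 lower of 14 (9.38% and 17.3% of all genes), with the binding protein Igfbp5 at 13.7 against 0.0958 RPKM (7.15) and the adaptor Irs2 at 102 against 7.83 (3.70). Between K36M and WT cells, 1 was higher and 2 lower of 13 at D0 (5.02% and 6.36% of all genes), 3 and 2 of 14 at D2 (11.2% and 4.37%), and 2 and 7 of 15 at D7 (11.7% and 8.46%). The median at D7 was 0.37, against 0.12 for all genes, opposite in sense to the counts. The growth factor Igf1 was at 0.977 RPKM in K36M and 6.56 in WT cells at D7 (-2.75). In Nsd2 KD against Ctrl cells, 2 were higher and 2 lower of 12 at D0 (6.61% and 10.8%), with Igfbp3 at -4.10 and Igfbp4 at 3.95, and 1 was higher and 7 lower of 14 at D2 (4.88% and 9.57%), with a median of -1.02 against -0.05 for all genes. With Rosi, 3 of 11 were higher and 0 lower in either PPARγ population, against 9.96% and 5.05% of all genes for WT and 7.90% and 8.85% for K36M, with Irs2 at 2.33 and 1.78.

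DLK1 is known as a noncanonical ligand that can inhibit Notch signalling, so genes of that pathway and Sox9, a factor through which DLK1 is known to act, were listed as well. Of 13 listed, 12 were found, without Dlk2, and 7 to 9 reached the minimum in each comparison. The Notch ligand Jag1 was at 5.03 RPKM at D0 and 25.3 at D2 in WT cells (2.33) and at 4.28 and 30.1 in Ctrl cells (2.81), while Sox9 was lower at D2 in both (-1.34 and -1.41). In K36M cells Jag1 was lower than in WT cells at D0 (-1.67), D2 (-2.88) and D7 (-2.96). In Nsd2 KD cells at D0, where Dlk1 was highest, 2 were higher and 1 lower of 8 (6.61% and 10.8% of all genes), and Sox9 was at 30.5 RPKM against 11.2 in Ctrl cells (1.45). At D2 there, 1 was higher and 3 lower of 9 (4.88% and 9.57%), with the receptor Notch1 at -1.56 and Jag1 at -1.30. Sox9 was similar at D2, at 4.59 RPKM in Nsd2 KD and 4.22 in Ctrl cells, although Dlk1 was at 27.9 and 3.51.

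The genes whose pattern was most like that of Dlk1 were found by the root mean square difference of centred log2(RPKM + 0.1) values over the 14 libraries, among 10519 genes. The closest were Iglon5 (0.68), Apobec3 (0.71), Dnm1 (0.74), and the transcripts NR_028404 (0.77) and NM_183318 (0.77), which the table of names did not pair with a symbol. Dnm1, a dynamin, was at 15.5 RPKM in Ctrl and 44.8 in Nsd2 KD cells at D0, and at 17.5, 2.66 and 8.65 RPKM in WT cells at D0, D2 and D7. Iglon5 was at 3.31 RPKM in Ctrl and 12.9 in Nsd2 KD cells at D0. Meg3, the neighbour of Dlk1, ranked 4177 with 1.48, behind Plagl1 at 2148 with 1.38 and Igf2r at 2971 with 1.42. The measure takes in the size of changes, so a gene that varies little, such as Igf2r, can rank ahead of one that varies more. The order of Igf2r and Meg3 therefore does not show which is closer to Dlk1 in the shape of its pattern. Even the closest genes differed from Dlk1 by over 0.6 log2 units on this measure, and it is a description with no test.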

How the data were processed

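The authors sequenced poly(A) RNA on an Illumina instrument and deposited 1 table per library with an RPKM value for each RefSeq transcript, on mm9. The submitters' processing notes name CASAVA 1.8.2. The aligner and the counting of reads shared by transcripts are not given in the sources used here. The ChIP-Seq samples were not analysed here.

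Per deposited RPKM table, 28432 of 29082 transcripts were matched to a symbol. From the RPKM steps, whole reads could be recovered for 26946 of the 26946 transcripts that 2 or more libraries listed above 0, with a largest relative deviation of 5e-12. A count of 3 reads corresponds to 0.123 to 0.246 RPKM for a transcript of 1 kb. Ratios used RPKM as deposited, with no pseudocount. Intervals were Clopper-Pearson, two-sided, or normal with variance 1/reads for differences of responses. With 1 library a condition, no test was made. The named genes were all 10 members, the 5 most like Dlk1 among genes reaching RPKM 5, and at most 3 per list and comparison with the largest change reaching RPKM 5. The members and lists were chosen with earlier results of these data known. Scaling, pseudocount, minimum and transcript choice were varied. The read recovery and calls were tested on simulated data. Python 3.11.15, numpy 2.4.6, pandas 2.3.3 and SciPy 1.17.1 were used.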

Additional observations from a re-analysis of the deposited data

Results flagged for a closer look

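Cdkn1c and Igf2r responded in opposite directions in perturbed and control cells, with counting intervals that excluded 0 in both. Neither the K36M nor the Nsd2 KD difference was tested, as each condition had 1 library. From D0 to D2, Cdkn1c was at -0.85 in K36M and 1.27 in WT cells, a difference of -2.12 on the log2 scale. Over the same days it was at -2.48 in Nsd2 KD and 0.58 in Ctrl cells, a difference of -3.06. Igf2r was at 0.80 in K36M and -0.37 in WT cells from D2 to D7, a difference of 1.17. From D0 to D2 it was at -0.29 in Nsd2 KD and 0.12 in Ctrl cells, a difference of -0.414. With libraries rescaled by the median ratio the Ctrl response was at 0.03 with an interval of -0.02 to 0.08, so the opposite direction in Ctrl cells was not kept beyond counting error. All Igf2r responses were within 2-fold.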

How the results depend on the processing

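No log2 ratio that was called changed sign under any alternative tried. The counts moved by more than 1.5 times in 4 comparisons. From D2 to D7 in K36M cells, 3 genes were called in place of 5 with libraries rescaled by the median ratio, and 3 with a pseudocount of 1, each time without Dlk1 and Cdkn1c. For K36M against WT at D0, 2 were called in place of 4 with a pseudocount of 1, without Igf2 and Mest. With PPARγ and DMSO, 2 were called in place of 4 when RPKM of at least 1 was required in both libraries, without Peg3 and Mest. With PPARγ and Rosi, 2 were called in place of 4 under that requirement and 2 with a pseudocount of 1, each time without Igf2 and Peg3. By construction, a pseudocount shrinks the ratios of low genes and the minimum in both libraries removes genes that are low in 1 of them, whereas rescaling shifts every gene of a comparison equally. The rescaled values of Dlk1 (0.98) and Cdkn1c (1.00) stood at the 2-fold limit. Rescaling kept the sign in 166 of 170 ratios, the exceptions being ratios within 2-fold of Plagl1 (2), Grb10 and Meg3, and the median shift exceeded 0.1 for K36M against WT at D7 (0.11) and with Rosi (-0.11) and for Ctrl against WT at D0 (-0.22) and D2 (-0.14). With the shift at D0, Grb10 between Ctrl and WT cells was at -0.86 and no longer called, and Igf2 was at 1.17 and was called. The longer Meg3 transcripts, added after the data were seen, kept the sign in 17 of 17 comparisons and the side of 2-fold in 14 and 15. Leaving out a library was not possible. No paired analysis was possible because each condition had 1 library. Genes with few reads, H19 in PPARγ and Nsd2 KD cells and Igf2 in Nsd2 KD cells, were limited by depth.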
